A study of Bos taurus with 16 samples.

Results

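Serine proteases of the kallikrein family, the serpins that can inhibit serine proteases, and the Kazal-type SPINK inhibitors were followed in the blood and uterus of Holstein dairy cows, in white blood cells from the circulation (WBC) and in endometrium. The members were the genes whose array name started with KLK and a digit, with SERPIN or with SPINK, apart from 1 serpin that was left out. They came to 50 of 26554 gene names, carried by 95 of 46615 probes. Among them were 13 kallikreins, 14 clade A serpins, 9 clade B serpins, 10 other serpins and 4 SPINKs. RNA of 4 cows with subclinical endometritis (SCE; cows 718, 833, 836 and 846) and of 4 healthy cows (cows 841, 850, 877 and 883) was hybridised at 45 to 55 days post-partum. Both tissues of every cow were hybridised on an array of their own, which gave 4 groups of 4 arrays. No treatment is named in the labels, and endometrium was taken as a transcervical biopsy that holds several cell types. The stage of the estrous cycle differed among the cows and is not tied to single arrays. The study reports more cows in the luteal phase among the SCE cows on the arrays than among the healthy ones. It also reports endometrial genes that changed with the stage. The part of the stage in the status differences was not tested.

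Kallikreins are secreted proteases that are made as inactive precursors and activate each other in cascades at epithelial surfaces. Serpins act as baits: the protease cuts an exposed loop of the serpin and is then trapped in a covalent complex. Some serpins have no inhibitory role, such as the collagen chaperone SERPINH1 and the uterine serpin SERPINA14. SPINKs block trypsin-like proteases by a reversible fit into the active site.

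Values are log2 normalized intensities, on which 1 unit is a doubling, and array values are listed in the order healthy cows 841, 850, 877, 883 and SCE cows 718, 833, 836, 846. A member with several probes carries the mean of its probes. The lowest signal among spots well above background lay between 5.42 and 5.70 on the single arrays, so values near there hold no measurable level. Spots not above background also reached higher values, such as 6.32 for KLK14 in the WBC of cow 718. A value somewhat above that range is therefore not a measured level by itself. Differences were tested with limma's TREAT, which asks whether a difference exceeds 1.2-fold, with p-values adjusted over all genes by the Benjamini-Hochberg method. The number of arrays limits the precision. All WBC arrays shared 1 slide and all endometrium arrays a second one, and a difference between tissues cannot be told apart from one between slides. Each cow held the same place on both slides, so cow and place cannot be told apart either. In bulk tissue, fewer cells of a type and less RNA per cell cannot be told apart.

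The endometrium array of SCE cow 833 stood apart. Its median signal over background was 79, against 248 to 316 on the other endometrium arrays, and that of the cow's WBC array was 202.5, against 83 to 132 on the other WBC arrays. Among 49 members measured on all endometrium arrays, cow 833 held the highest value for 17 (34.7%) and the lowest for 9 (18.4%), beside 28.1% and 26.4% of all genes. The cow's WBC array held the highest value for 3 members (6.12%) and the lowest for 19 (38.8%), beside 20.1% and 28.9% of all genes. Some genes differed by at least 1 between WBC and the other endometrium arrays. For 13 of 20 such members and 69.6% of 8991 such genes, this cow's endometrium lay on the WBC side of those arrays. In its endometrium the endothelial marker mean was 12.04 (9.19 to 10.15 on the others) and the stromal marker mean 12.08 (12.96 to 14.27 on the others). Some status differences of members printed with their gene below turned or moved by over 1.5 times without this cow. The value without it is then given as well. For genes that are no members, no value without this cow is given. Status differences of members that are not printed with their gene also changed. Without this cow, KLK1 in endometrium went from -0.12 to 0.43, SERPINA12 from 0.26 to -0.25 and SERPINA3-2 from 0.28 to -0.01. In WBC KLK9 went from -0.11 to 0.21 and KLK8 from 0.08 to 0.22. The tissue labels held on the marker lists: the mean of 8 stromal genes was 12.08 to 14.27 in endometrium and 7.49 to 7.61 in WBC, and that of 10 neutrophil genes 10.14 to 10.68 in WBC and 6.43 to 7.13 in endometrium.

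Of the 50 members, 21 were well above background on all 16 arrays and 5 on none (KLK7, KLK13, KLK14, SERPINA7 and SPINK2). KLK10 and SERPINA5 were above background on all 8 endometrium arrays and on no WBC array, and SERPINB2 and SERPINB7 on all 8 WBC arrays and on no endometrium array.

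**Figure D1:**
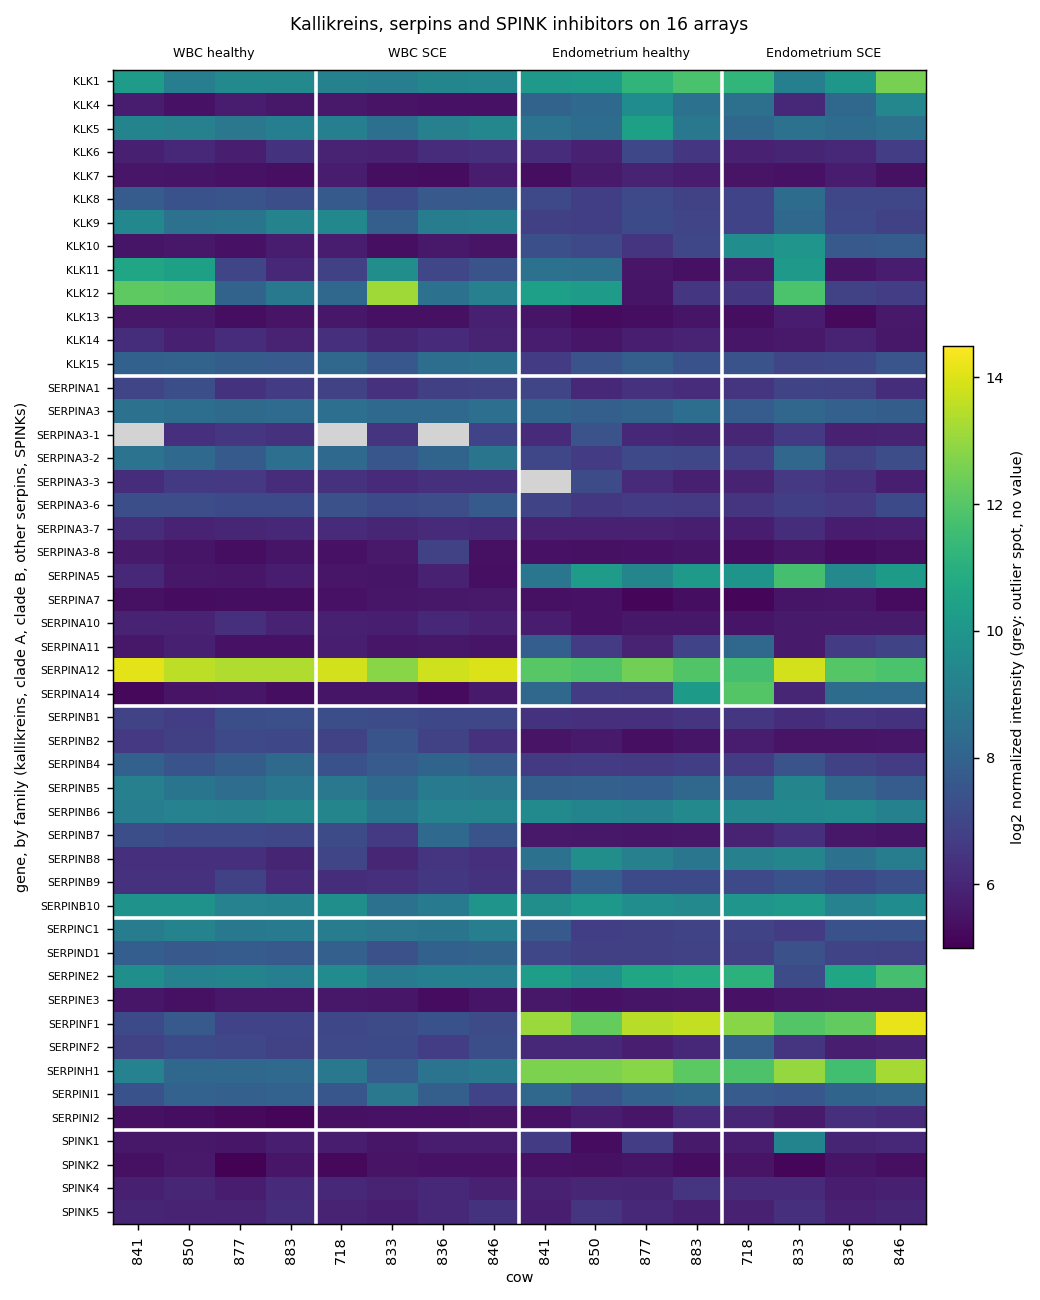
Log2 normalized intensity of 49 members (rows, by family) on the 16 arrays (columns, by group and cow); grey cells are spots left out as outliers. SERPINF1, SERPINH1 and SERPINA5 are brighter in endometrium, SERPINA12 is bright on every array, and KLK11 and KLK12 are bright in cows 841, 850 and 833 in both tissues.

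No member differed between SCE and healthy cows after adjustment, in endometrium or in WBC, and neither did any other gene (0% of 26541 and 26548 genes tested). Without adjustment 1 of the 50 members passed TREAT in endometrium, KLK10, where 0.381% of all genes passed. None passed in WBC, where 0.0904% of all genes passed. The groups did not overlap for 1 member in endometrium (KLK10) and for 1 in WBC (SERPINA7, below background on every array), against 1.56% and 1.36% of all genes. The median difference over the 50 members was 0.02 in endometrium and 0 in WBC, beside 0 and -0.01 over all genes. No member passed after adjustment when the SCE effect in endometrium was set against that in WBC (0% of 26545 genes), and KLK10 passed without adjustment, where 0.388% of all genes passed.

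**Figure D2:**
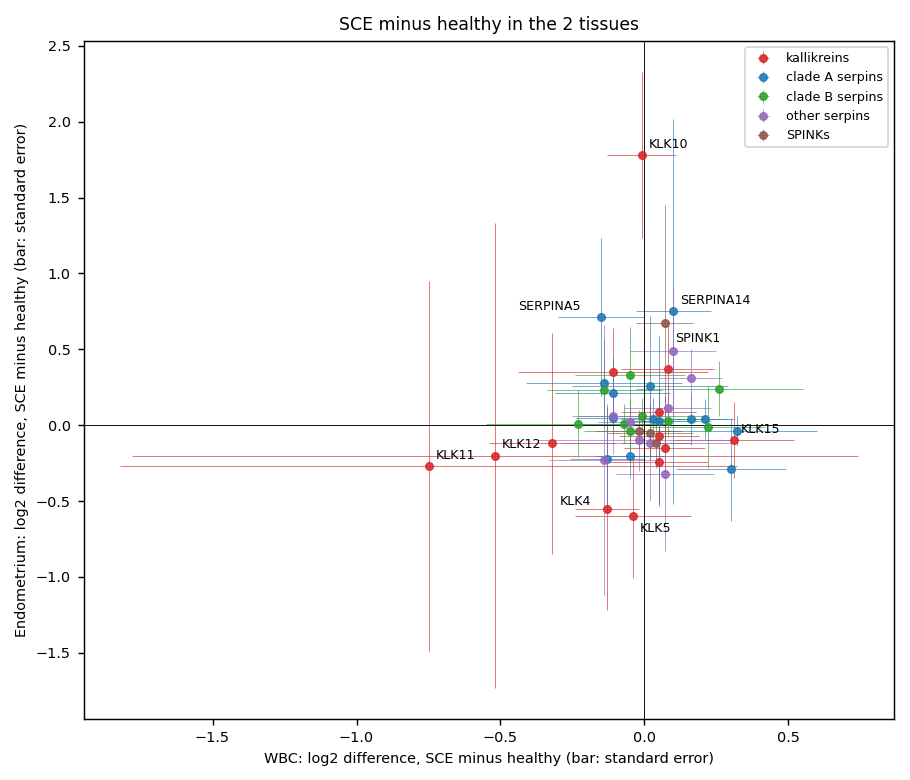
Log2 difference between SCE and healthy cows in WBC (horizontal) and endometrium (vertical) for 49 members, coloured by family; bars are standard errors. KLK10 stands at 1.78 in endometrium and -0.01 in WBC, and the bars of KLK11 and KLK12 are wide.

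KLK10, a kallikrein of epithelia that carries a serine protease fold, was the member that separated the groups in endometrium. Its probe lies at chr18:56969374-56969433, minus strand, in the coordinates of the array (build HGSC Btau_3.1), within a run of 13 kallikrein genes in the same part of the chromosome. Endometrium of healthy cows gave 7.31, 7.09, 6.47 and 7.01, and that of SCE cows 9.65, 9.95, 7.64 and 7.77. All 4 SCE arrays lay above all 4 healthy arrays, with cows 718 and 833 far above cows 836 and 846. The means were 6.97 ± 0.36 and 8.76 ± 1.22 (SD, n = 4), a difference of 1.78 (standard error 0.55, 3.44-fold). It passed TREAT without adjustment, and the adjusted p in limma was 1. The two-sided exact permutation test over cows gave p = 0.0286, the smallest that 4 against 4 cows allow. Every gene whose 2 groups of 4 do not overlap gets this p, and 1.56% of all genes did not overlap in endometrium. KLK10 was singled out among the members by its difference on these same arrays, so this p cannot serve as a test of it. Without cow 833 the difference was 1.38 and still passed TREAT without adjustment. Within the rows of the slide, where 2 SCE cows met 2 healthy cows each, it was 2.60 in row 1 and 0.97 in row 2. In WBC the 8 values lay between 5.40 and 5.75, none above background, and the groups differed by -0.01 (standard error 0.12), or by 0.04 without cow 833. The SCE effect was 1.80 larger in endometrium than in WBC (standard error 0.58, limma adjusted p = 1) and passed without adjustment. The marker mean of 12 stratified squamous epithelium genes was 7.41, 7.96, 7.50 and 7.33 in SCE and 7.39 to 7.43 in healthy endometrium. That of 10 glandular and luminal epithelium genes was 10.05, 9.11, 10.30 and 9.10 in SCE and 8.35 to 10.01 in healthy endometrium. The neutrophil mean was 6.92, 7.13, 6.48 and 6.60 in SCE and 6.43 to 6.72 in healthy endometrium, and that of 4 B and plasma cell genes 10.72, 10, 9.79 and 8.85 in SCE and 8.82 to 9.41 in healthy endometrium. The part of these cells in the KLK10 values was not tested.

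KLK4, which processes enamel proteins in teeth and is also made in hormone-responsive epithelia, was an endometrial member. Healthy endometrium gave 8.02, 8.26, 9.61 and 8.53, and SCE endometrium 8.50, 6.10, 8.22 and 9.41. Cow 833 was the one array far below the rest, and the groups overlapped. The difference of -0.55 (standard error 0.67, limma adjusted p = 1) became 0.11 without cow 833. No WBC array was above background. The endometrium of healthy cows was at least 7.62-fold brighter than their WBC (limma adjusted p = 0.000234), and that of SCE cows at least 5.48-fold (limma adjusted p = 0.000973).

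KLK5 starts the kallikrein cascade of the epidermis by activating other kallikreins. Its endometrial values were 8.60, 8.34, 10.41 and 8.79 in healthy cows and 8.22, 8.56, 8.34 and 8.59 in SCE cows. Healthy cow 877 alone lay above the others, and the other 7 arrays covered 8.22 to 8.79. The difference of -0.60 (standard error 0.41, limma adjusted p = 1) was the lowest of the 50 in endometrium and was -0.15 without cow 877. KLK5 was above background on all 16 arrays.

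KLK1, tissue kallikrein, releases kinins from kininogen. Its gene mean gave 10.14, 10.26, 11.22 and 11.77 in healthy and 11.27, 9.09, 10.02 and 12.54 in SCE endometrium. In WBC it gave 10.23, 9.06, 9.52 and 9.47 in healthy and 9.18, 9.05, 9.35 and 9.43 in SCE cows, where the difference was -0.32 (standard error 0.22, limma adjusted p = 1) with overlap. The 2 probes of KLK1 did not move alike between tissues. In healthy cows the one at chr18:56860509-56860568 differed by 3.11 between endometrium and WBC (limma adjusted p = 0.00637), and the one at chr18:56861284-56861343 by -0.55 (limma adjusted p = 0.405). The gene mean differed by 1.28 (limma adjusted p = 0.105) and so hid this.

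KLK8 and KLK9, neighbours in the cluster, were above background on every array. KLK8, known as neuropsin, gave 7.10, 6.75, 7.10 and 6.84 in healthy and 6.90, 8.36, 7.03 and 7.01 in SCE endometrium. KLK9 gave 6.81, 6.78, 7.13 and 6.97, and 6.90, 8.20, 7.11 and 6.88. In both genes cow 833 alone was raised in endometrium, and the other 7 arrays covered 6.75 to 7.10 and 6.78 to 7.13. The SCE differences of 0.37 and 0.35 (standard errors 0.32 and 0.29, limma adjusted p = 1 each) were 0.03 and 0.04 without that cow. The same cow's WBC array held the lowest KLK8 and KLK9 values among WBC, 7.15 and 7.88. KLK9 was lower in endometrium than in WBC, with a difference of -2.05 in healthy cows (standard error 0.34, limma adjusted p = 0.00022). In SCE cows the difference was -1.59 (limma adjusted p = 0.00246), with overlap through cow 833, and -0.73 with each tissue normalized on its own (limma adjusted p = 0.188).

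KLK15, whose product can activate other kallikreins, had the largest kallikrein difference toward SCE in WBC. Healthy WBC gave 7.96, 8.03, 7.82 and 7.72, and SCE WBC 8.21, 7.57, 8.44 and 8.57. SCE cows 718, 836 and 846 lay above all healthy cows and cow 833 below them. The difference was 0.31 (standard error 0.21, limma adjusted p = 1). Without cow 833 it was 0.52 and passed without adjustment (limma adjusted p = 1). In SCE cows KLK15 was lower in endometrium than in WBC, with a difference of -0.96 (limma adjusted p = 0.0162), which was -0.13 with each tissue normalized on its own (limma adjusted p = 0.948). In healthy cows the difference was -0.54 with overlap (limma adjusted p = 0.233).

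KLK11 and KLK12, which follow KLK10 in the cluster, did not follow uterine status. KLK12 is a trypsin-like kallikrein, and KLK11 is also found in several epithelia. KLK12 gave 12.15, 12.07, 8.04 and 8.84 in healthy and 8.19, 13.15, 8.56 and 9.12 in SCE WBC. In endometrium it gave 10.37, 10.25, 5.55 and 6.49 in healthy and 6.51, 11.81, 6.84 and 6.71 in SCE cows. Healthy cows 841 and 850 and SCE cow 833 were high in both tissues, and the other 5 cows were at least 2.96 lower in WBC and 3.41 lower in endometrium. KLK11 gave 10.58, 10.41, 6.97 and 6.07 in healthy and 6.85, 9.71, 7.03 and 7.44 in SCE WBC. In endometrium it gave 8.56, 8.50, 5.57 and 5.42 in healthy and 5.65, 10.11, 5.52 and 5.71 in SCE cows. The same 3 cows were high again, with gaps of 2.27 and 2.79 to the next cow. The status differences of KLK11 were -0.75 in WBC (standard error 1.07) and -0.27 in endometrium (standard error 1.22), and those of KLK12 -0.52 (standard error 1.26) and -0.20 (standard error 1.53), all with limma adjusted p = 1. Without cow 833 these were -1.4 and -1.39 for KLK11 and -1.66 and -1.48 for KLK12. Within each cow KLK12 was lower in endometrium than in WBC, by differences of -1.78, -1.83, -2.50 and -2.35 in healthy and -1.68, -1.34, -1.72 and -2.41 in SCE cows. The mean differences of -2.11 and -1.79 did not pass between tissues (limma adjusted p = 0.309 and 0.413), and passed with the cow as a block (limma adjusted p = 4.64e-05 and 0.000158). KLK11 differed by -1.49 in healthy cows and passed with that block only (limma adjusted p = 0.4 without and 0.0115 with it). The residual SD of KLK12 in endometrium, 2.54, exceeded that of 99.9% of all genes.

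The arrays of these cows were searched for other probes with this order, after the KLK12 values had been seen and with no test. The 3 highest arrays were those of cows 841, 850 and 833 in both tissues for 21 of 45939 probes measured on all arrays, and the gap to the next cow was at least 1 in both tissues for 3 of them: KLK12, KLK11 and PRSS2, which encodes a trypsinogen. The next in line were a transcript on chromosome 7 named ENSBTAT00000000958 (gaps of 1.57 and 0.94) and KLKB1, plasma prekallikrein (0.74 and 0.36). PRSS2 gave 12.63, 12.44, 8.46 and 9.26 in healthy and 9.03, 13.48, 9.53 and 9.70 in SCE WBC. In endometrium it gave 10.54, 10.59, 6.50 and 6.36, and 6.22, 12.38, 6.31 and 6.88. Cows 841, 850 and 833 lay in row 1 of each slide, together with cow 718, which was not high.

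The sequences of these 5 probes are shown because they fall into 2 sets that resemble each other. In the first set, capitals mark the bases that all 3 probes share when they are placed side by side without gaps. KLK12 lies at chr18:56981765-56981824 (minus strand), KLK11 at chr18:56976171-56976230 (minus strand) and KLKB1 at chr27:17603213-17603272 (plus strand), each as 1 unbroken stretch of 60 bases within a transcript.
KLK12: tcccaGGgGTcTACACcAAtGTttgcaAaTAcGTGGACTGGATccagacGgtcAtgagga
KLK11: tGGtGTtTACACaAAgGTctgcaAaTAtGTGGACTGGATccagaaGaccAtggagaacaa
KLKB1: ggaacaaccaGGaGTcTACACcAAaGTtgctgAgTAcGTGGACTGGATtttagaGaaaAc
KLK12 matched KLK11 at 44 of 56 overlapping bases (78.6%), with a longest identical run of 16, and KLKB1 at 36 of 55 (65.5%), with a run of 14. In the second set, capitals mark the bases shared by PRSS2 (chr4:110028768-110028827, plus strand) and the chromosome 7 transcript (chr7:19888691-19888750, minus strand).
PRSS2: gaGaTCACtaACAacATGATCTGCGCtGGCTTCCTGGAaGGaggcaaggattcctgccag
ENSBTAT00000000958: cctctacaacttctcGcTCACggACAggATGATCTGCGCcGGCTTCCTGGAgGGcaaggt
These matched at 32 of 47 bases (68.1%), with a longest run of 11. The PRSS2 probe lies in another part of its transcript and matched KLK12 at 19 of 52 bases (36.5%). Of all probes on the array, KLK11 matched the KLK12 probe best. The ENSBTAT00000052985 probe came next with 38 bases and a run of 14, equal to that of KLKB1. In WBC it ran from 5.56 to 5.63 in cows 841, 850 and 833 and from 5.39 to 5.78 in the others. The KLK9 and KLK4 probes followed with 38 and 37 bases but shorter identical runs (10 and 12). KLK9 in WBC ran from 7.88 to 9.44 in cows 841, 850 and 833 and from 8.67 to 9.44 in the others. The HGFAC and PRSS37 probes matched at 34 and 35 bases. In WBC HGFAC ran from 7.70 to 8.10 in these cows and from 6.51 to 6.84 in the others. In endometrium it ran from 7.80 to 8.29 and from 8.19 to 9.26. PRSS37 was near background, with 5.75 to 5.91 and 5.45 to 5.53 in WBC, and overlapped in endometrium. Apart from KLK11, KLKB1, HGFAC and PRSS37, the 12 best matches overlapped in WBC between these cows and the others. The TMPRSS15, C1R and HPN probes matched PRSS2 at 34, 34 and 33 bases, above the 32 of the chromosome 7 transcript. Their runs were shorter (6, 7 and 7, against 11), and in WBC each overlapped between these cows and the others. Whether the 5 probes read 1 transcript was not tested.

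**Figure D3:**
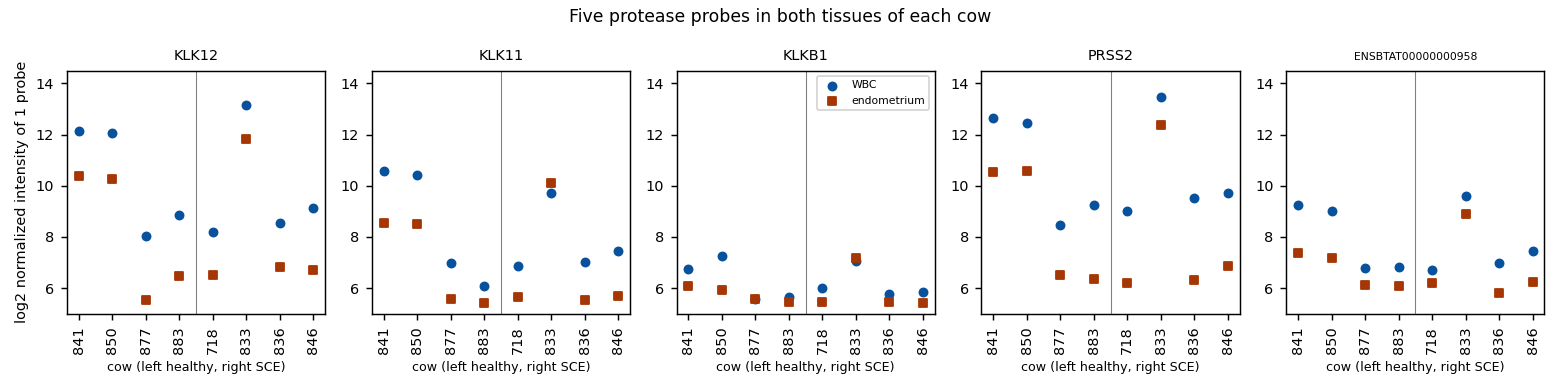
Log2 normalized intensity of 5 protease probes (panels) in the WBC (circles) and endometrium (squares) of each cow (horizontal axis; healthy cows left of the line, SCE cows right). Cows 841, 850 and 833 are high in both tissues for every probe, by more than 2 log2 units for KLK12, KLK11 and PRSS2.

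The remaining kallikreins held little signal. KLK6 was above background on 5 endometrium arrays and 1 WBC array, with 5.87 to 7.06 in healthy and 5.89 to 6.73 in SCE endometrium. KLK7, KLK13 and KLK14 were not above background on any array. Over the 13 kallikreins, the median SCE difference was -0.12 in endometrium and -0.01 in WBC.

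Among the clade A serpins, SERPINA14, the uterine serpin or uterine milk protein, is secreted by endometrial glands under progesterone. Its probe (chr21:59392443-59392502, minus strand) gave 8.17, 6.68, 6.62 and 10.19 in healthy and 11.96, 6.02, 8.36 and 8.31 in SCE endometrium. The values were scattered over both groups, with SCE cow 718 and healthy cow 883 highest and SCE cow 833 lowest and not above background. The status difference was 0.75 (standard error 1.27, limma adjusted p = 1) and turned to -0.35 without cow 718 and was 1.63 without cow 833. Its residual SD of 2.10 exceeded that of 99.8% of all genes. No WBC array was above background, and endometrium was at least 4.98-fold brighter in healthy cows (limma adjusted p = 0.0463) and at least 8.25-fold in SCE cows (limma adjusted p = 0.0147). The call in healthy cows was lost with normexp background correction (limma adjusted p = 0.117) and with the cow as a block (limma adjusted p = 0.0523).

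SERPINA5, the protein C inhibitor, is found in fluids of the reproductive tract. Healthy endometrium gave 8.72, 10.24, 9.31 and 10.14, and SCE endometrium 9.91, 11.71, 9.47 and 10.16. Cow 833 was highest, and the other 7 arrays overlapped. The difference was 0.71 (standard error 0.52, limma adjusted p = 1), and 0.25 without cow 833. In WBC its 8 values lay between 5.39 and 6.05, none above background. Endometrium was at least 14.6-fold brighter in healthy cows (limma adjusted p = 1.53e-06) and at least 25.7-fold in SCE cows (limma adjusted p = 1.59e-07). SERPINA11, a serpin of unsettled function, also stood above background in endometrium only, on 4 healthy and 3 SCE arrays, and was at least 2.27-fold and at least 2.32-fold brighter there (limma adjusted p = 0.0403 and 0.0446). Neither call held with normexp background correction (limma adjusted p = 0.0591 and 0.0795). The 2 probes of SERPINA11 differed between tissues by 2.24 and 0.28 in healthy cows, and only the first passed (limma adjusted p = 0.00816 and 0.673).

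**Figure D4:**
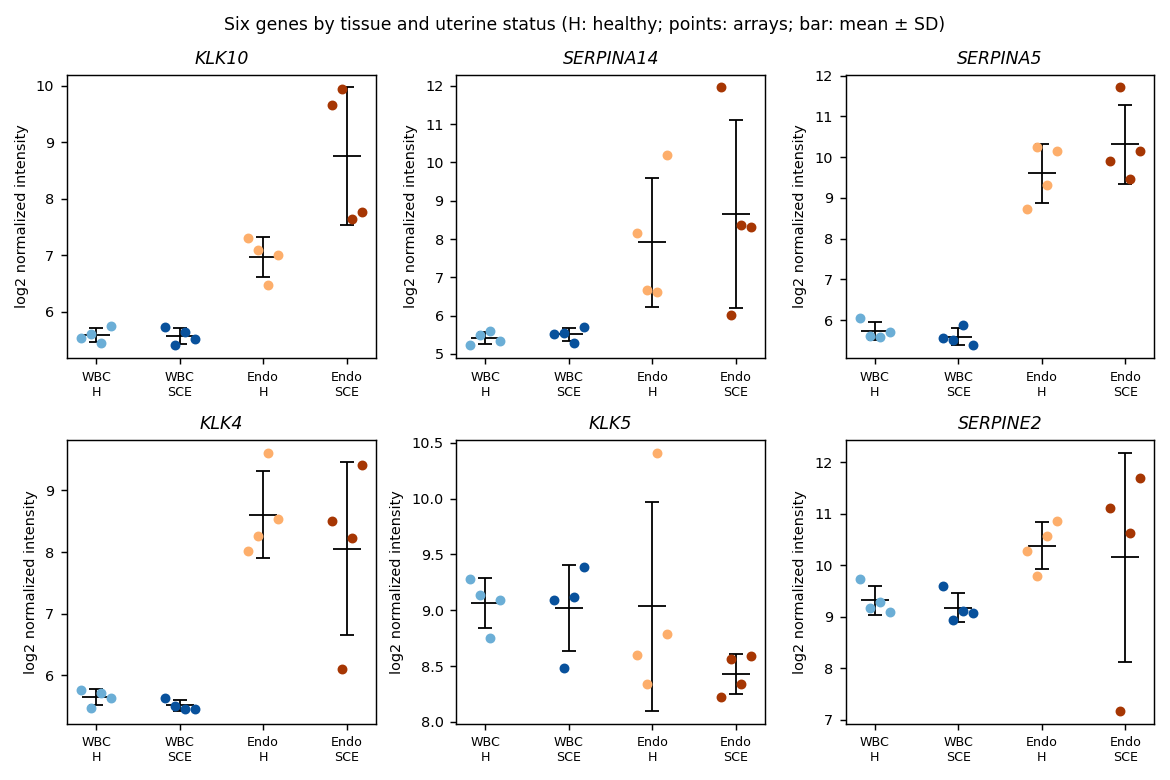
Log2 normalized intensity of 6 members in WBC and endometrium of healthy (H) and SCE cows; points are arrays, bars the mean ± SD of 4 arrays. The endometrial groups are apart for KLK10 and overlap for SERPINA14, SERPINA5, KLK4, KLK5 and SERPINE2.

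SERPINA12, known as the adipokine vaspin and an inhibitor of KLK7, was bright on every array. WBC gave 14.10, 13.54, 13.38 and 13.35 in healthy and 13.84, 12.82, 13.81 and 14.00 in SCE cows. Endometrium gave 12.05, 11.87, 12.46 and 11.93, and 11.70, 13.86, 11.99 and 11.81. Cow 833 was lowest in WBC and highest in endometrium. SERPINA12 was lower in endometrium, with a difference of -1.51 in healthy cows (standard error 0.40, limma adjusted p = 0.00993) and of -1.28 in SCE cows (limma adjusted p = 0.0296). With each tissue normalized on its own these were -0.90 and -0.68 and neither passed (limma adjusted p = 0.124 and 0.286). The difference in SCE cows was -2.05 without cow 833 (limma adjusted p = 2.47e-06) and did not pass with the cow as a block (limma adjusted p = 0.0835).

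The bovine SERPINA3 genes encode antichymotrypsin-like inhibitors of the acute phase and lie close together on chromosome 21 with much shared sequence. The SERPINA3-2 probe and 1 of the 2 SERPINA3 probes overlapped by 34 bases, of which 33 were identical. In WBC the SERPINA3-2 probe read 7.53 to 8.68 and that SERPINA3 probe 5.70 to 6.06, so they did not read alike. How much signal these genes share was not tested. SERPINA3-1 gave 6.15, 7.44, 6.07 and 5.98 in healthy and 6.03, 6.62, 5.87 and 5.96 in SCE endometrium. Healthy cow 850 was highest and the groups overlapped, with a difference of -0.29 (standard error 0.34, limma adjusted p = 1), and of -0.46 without cow 833. In WBC it was measured in 3 healthy cows (6.28, 6.51 and 6.35) and in SCE cows 833 and 846 (6.46 and 6.90), a difference of 0.30 (standard error 0.19, limma adjusted p = 1), and of 0.52 without cow 833. Its other 3 WBC spots were outliers and left out. SERPINA3-6 gave 7.27, 7.24, 7.15 and 7.15 in healthy and 7.37, 7.15, 7.24 and 7.70 in SCE WBC, a difference of 0.16 (standard error 0.13, limma adjusted p = 1). SERPINA3-2 was lower in endometrium than in WBC, with a difference of -1.30 in healthy cows (limma adjusted p = 0.00525). In SCE cows it was -0.88 and did not pass (limma adjusted p = 0.0626), and without cow 833 it was -1.38 and passed (limma adjusted p = 0.000652). With each tissue normalized on its own the difference in healthy cows was -0.50 (limma adjusted p = 0.388). SERPINA1, the alpha-1-antitrypsin that restrains neutrophil elastase, ran from 6.10 to 7.29 on all arrays as a mean of 3 probes, which differed between tissues by -1.69 to 0.37 in healthy cows.

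The clade B serpins mostly act inside cells. SERPINB8, an inhibitor of furin-like and trypsin-like proteases, was the one that stood highest in endometrium over WBC. WBC gave 6.33, 6.28, 6.31 and 5.97 in healthy and 6.97, 6.02, 6.47 and 6.31 in SCE cows, and endometrium 8.56, 9.70, 9.14 and 8.72, and 9.14, 9.34, 8.58 and 9.01. The tissues did not overlap, and all 4 probes passed in the same direction in healthy cows and 3 of 4 in SCE cows. The difference was 2.81 in healthy cows (standard error 0.25, 7.02-fold, limma adjusted p = 3.13e-07) and 2.57 in SCE cows (limma adjusted p = 9.86e-07). SERPINB9, which protects cells from granzyme B, was higher in endometrium by 0.82 and 0.83 (limma adjusted p = 0.0138 and 0.0128). With normexp background correction the difference in healthy cows was 0.57 and did not pass (limma adjusted p = 0.0767). The 2 probes of SERPINB9 differed between tissues by 1.06 and 0.57 in healthy cows, and only the first passed (limma adjusted p = 0.0134 and 0.247).

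SERPINB7, SERPINB2, SERPINB4 and SERPINB1 were lower in endometrium than in WBC. SERPINB7 gave 7.27, 7.08, 7.10 and 7.04 in healthy and 7.16, 6.62, 8.26 and 7.48 in SCE WBC, with SCE cow 836 highest. The status difference of 0.26 (standard error 0.29, limma adjusted p = 1) was -0.03 without that cow and 0.51 without cow 833. No endometrium array was above background for SERPINB7, and WBC was at least 2.82-fold brighter in healthy and at least 2.83-fold in SCE cows (limma adjusted p = 0.000516 and 0.000471). SERPINB2, plasminogen activator inhibitor 2, a product of monocytes, was at least 2.51-fold and at least 2.34-fold brighter in WBC (limma adjusted p = 9.68e-05 and 0.000185). Its 3 probes belong to 2 transcripts. The difference between endometrium and WBC in healthy cows was -1.2 for SERPINB4 (limma adjusted p = 0.000559) and -0.70 for SERPINB1, an inhibitor of neutrophil proteases (limma adjusted p = 0.00662). With each tissue normalized on its own these were -0.68 and -0.17 and no longer passed (limma adjusted p = 0.058 and 0.945). In healthy cows 2 of the 4 SERPINB4 probes passed. Of the 2 SERPINB1 probes, which differed by -1.22 and -0.18, only the first passed (limma adjusted p = 0.000256 and 0.876). In WBC, SERPINB4 gave 7.94, 7.45, 7.81 and 8.27 in healthy and 7.41, 7.71, 8.07 and 7.72 in SCE cows, and SERPINB10 9.85, 9.87, 9.21 and 9.17, and 9.74, 8.56, 8.93 and 9.93. Both overlapped, with differences of -0.14 and -0.23 (standard errors 0.20 and 0.32, limma adjusted p = 1 each), and SERPINB10 stood at 0.01 without cow 833. SERPINB5, or maspin, was read by 2 probes that differed between tissues by -1.66 (limma adjusted p = 0.021) and 0.11 in healthy cows. SERPINB13, a serpin of squamous epithelia, is on the array under a locus name and therefore no member. Its endometrial values were 5.82, 5.61, 5.55 and 5.77 in healthy and 6.19, 5.98, 6.04 and 6.12 in SCE cows. The SCE arrays all lay higher, by 0.39 (standard error 0.12, limma adjusted p = 1), but 1 of the 8 was above background.

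The other serpins held the widest tissue contrasts. SERPINF1, pigment epithelium-derived factor, is a secreted serpin without protease inhibition that restrains vessel growth. WBC gave 7.15, 7.64, 6.91 and 6.92 in healthy and 7.06, 7.21, 7.40 and 7.21 in SCE cows, and endometrium 13.07, 12.25, 13.48 and 13.64, and 12.83, 11.95, 12.20 and 14.19. The tissues were more than 4 log2 units apart in every cow. The difference was 5.96 in healthy cows (standard error 0.40, 62.1-fold, limma adjusted p = 8.87e-09) and 5.57 in SCE cows (limma adjusted p = 2.04e-08). Between SCE and healthy endometrium it differed by -0.32 (standard error 0.51, limma adjusted p = 1), and by -0.03 without cow 833.

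SERPINH1, or HSP47, is the chaperone of collagen folding. Its gene mean was 8.47 ± 0.49 in WBC and 12.54 ± 0.31 in endometrium of healthy cows (SD, n = 4), a difference of 4.07 (standard error 0.36, limma adjusted p = 2.84e-07). Of its 3 probes, 2 differed by 6.62 and 6.26 (limma adjusted p = 9.14e-10 and 3.12e-10). The third, the brightest of the gene over all arrays, differed by -0.68 (limma adjusted p = 0.461), so the direction of the gene depends on the probe.

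SERPINC1, antithrombin, was lower in endometrium, with differences of -1.96 in healthy and -1.79 in SCE cows (standard error 0.21 each, limma adjusted p = 3.76e-06 and 1.17e-05), with WBC at 8.69 to 9.24 and endometrium at 6.69 to 7.66. SERPIND1, heparin cofactor II, was lower as well, by differences of -0.87 and -0.84 (limma adjusted p = 0.00212 and 0.00324). With each tissue normalized on its own its differences were -0.22 and -0.17 and neither passed (limma adjusted p = 0.827 and 0.929).

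SERPINE2, protease nexin 1, is an inhibitor of thrombin and of the plasminogen activators. Its endometrial values were 10.28, 9.79, 10.57 and 10.86 in healthy and 11.12, 7.17, 10.63 and 11.69 in SCE cows. Cow 833 lay far below all others. The status difference of -0.23 (standard error 0.89, limma adjusted p = 1) became 0.77 without it. SERPINF2, the plasmin inhibitor, gave 6.84, 7.14, 7.01 and 6.83 in healthy and 7.09, 7.12, 6.72 and 7.30 in SCE WBC, a difference of 0.10 (standard error 0.15, limma adjusted p = 1). In endometrium it was near background except in SCE cow 718 (7.88).

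The 4 SPINKs were low. SPINK1, the pancreatic secretory trypsin inhibitor, was above background on no WBC array. Its endometrium gave 6.68, 5.33, 6.71 and 5.69 in healthy and 5.76, 9.29, 5.98 and 6.06 in SCE cows, with cow 833 alone far above the rest. The difference of 0.67 (standard error 0.78, limma adjusted p = 1) turned to -0.17 without that cow. SPINK5, a broad inhibitor of epidermal kallikreins, ran from 5.78 to 6.47 on all arrays. SPINK4 and SPINK2 were above background on 2 arrays and on none.

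Between tissues, 19 of 50 members passed after adjustment in healthy cows (38%, against 45.7% of all genes) and 20 in SCE cows (40%, against 43.8%). Of these, 9 were higher in endometrium and 10 in WBC in healthy cows, and 9 and 11 in SCE cows, where 19.3% and 26.4% of all genes (healthy cows) and 19% and 24.8% (SCE cows) passed in those directions. In both cow groups 18 members passed, all 18 in the same direction. The median difference was -0.03 in healthy and -0.15 in SCE cows, beside -0.15 over all genes in each. By family, 6 of 9 clade B, 5 of 10 other, 5 of 14 clade A, 3 of 13 kallikrein and none of 4 SPINK genes passed in healthy cows. With the cow as a block KLK11 and KLK12 passed as well in healthy cows, and KLK12 in SCE cows. The scale between tissues depends on the normalization: with each tissue normalized on its own, the median over all genes was 0.33 in healthy cows, and 15 members passed as higher and 4 as lower in endometrium. All 19 members called in healthy cows kept their direction under that and the 3 other scalings, and 13 kept their call under normalization within each tissue. In SCE cows 14 were higher and 3 lower in that scaling, and SERPINA3-6 turned.

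**Figure D5:**
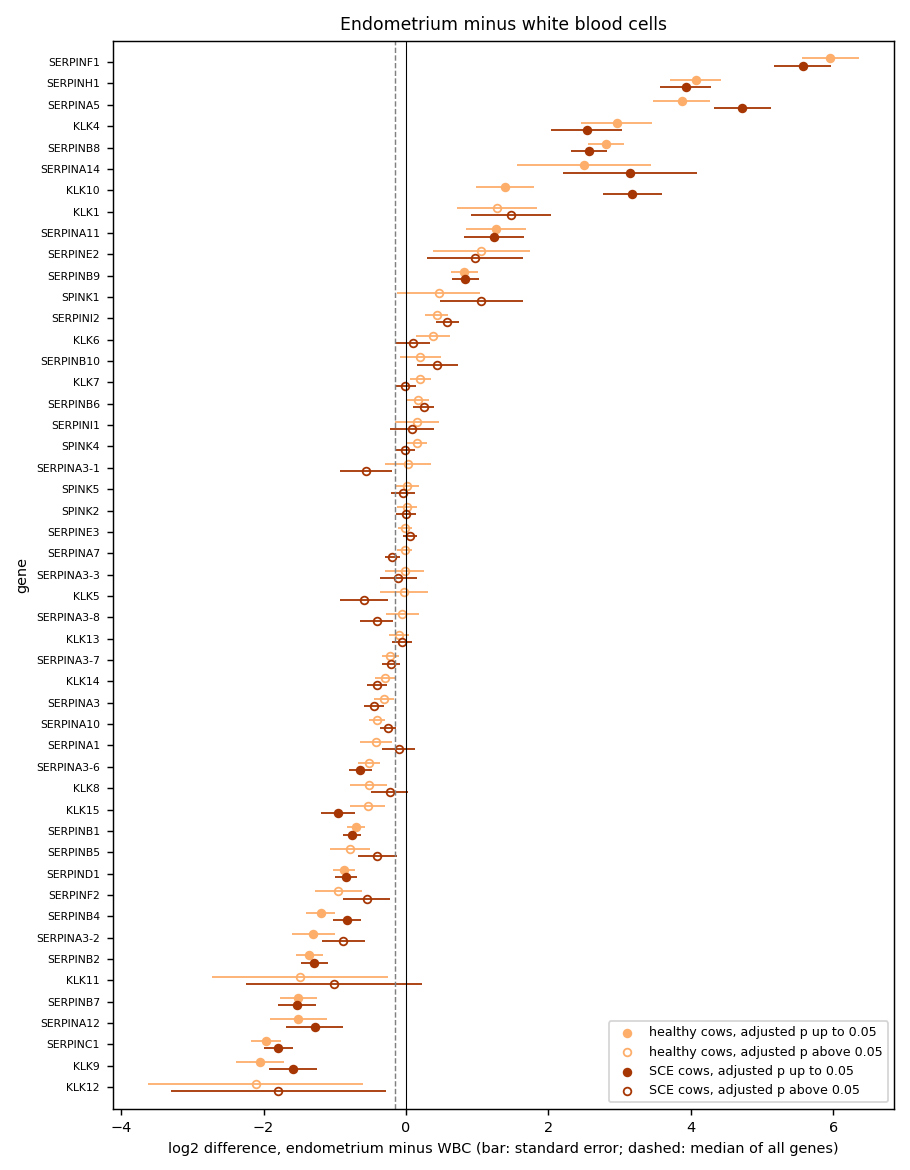
Log2 difference between endometrium and WBC of 49 members in healthy (light) and SCE (dark) cows; bars are standard errors, filled points passed TREAT after adjustment, and the dashed line is the median of all genes. SERPINF1 leads at 5.96 and 5.57, and the bars of KLK11 and KLK12 are the widest.

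Further genes of the protease network were read from a pair of lists. Of 29 measured serine proteases and their receptors, none passed after adjustment between SCE and healthy cows in either tissue. Without adjustment 1 of 29 passed in endometrium, beside 0.381% of all genes: PRSS23, a secreted serine protease, was 10.92 in healthy and 10.23 in SCE cows, a difference of -0.69 (standard error 0.18, limma adjusted p = 1). The largest difference upward was that of THBD, thrombomodulin, at 0.78. Between tissues in healthy cows 8 of 29 were higher and 6 lower in endometrium, beside 19.3% and 26.4% of all genes, from PLAT, tissue plasminogen activator (9.80, limma adjusted p = 3.18e-11), to ELANE, neutrophil elastase (-4.34, limma adjusted p = 1.76e-08). Of 25 other protease inhibitors none passed after adjustment for status. In endometrium 3 of 25 passed without it, beside the same 0.381% of all genes, all higher in SCE: PI3 or elafin by 3.45, WFDC2 by 2.06 and SLPI by 1.08 (standard errors 1.1, 0.73 and 0.36, limma adjusted p = 1 each). The largest difference downward was that of TIMP1 at -0.71. The median endometrial difference was 0.21 over these inhibitors and 0.01 over the proteases. Both lists were chosen with earlier results of these data known, and PI3 had the largest rise of all 26541 genes tested in endometrium. The shares that passed can therefore not serve as a test of either list against all genes. In WBC no gene of either list passed without adjustment. Between tissues in healthy cows 10 of 25 inhibitors were higher and 1, A2M, lower in endometrium, beside the same 19.3% and 26.4%.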

How the data were processed

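Circulating WBC and endometrial biopsies of 8 cows were measured on 16 one-colour arrays, and groups were taken from the labels. Spot intensities came from Feature Extraction 10.10.1.1 (Agilent), and the authors deposited them as not normalized. Their own normalized intensities, also deposited, served as an alternative. Coordinates and gene names are those of the array (build HGSC Btau_3.1 per the file headers).

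Median spot intensities were taken to log2 without background correction, control and outlier spots (190 to 465 per array) were left out, and values were quantile-normalized over 16 arrays and averaged per probe and gene. On the single arrays 64.6% to 79.7% of spots stood well above background. The status comparison was fitted for each tissue alone in limma 3.58.1 (R 4.3.3) by lmFit and treat at 1.2-fold, with Benjamini-Hochberg adjustment at 0.05. The tissue comparison and the change of the SCE effect from WBC to endometrium came from 1 model of 4 groups. A bound ("at least N-fold") sets the bright group against the lowest signal well above background where a member was above background on no array of the dim group. It holds for the main scaling only and is no firm minimum. In healthy cows the log2 bounds of SERPINA5, KLK4 and SERPINA14 were 3.86, 2.93 and 2.31. Their differences were 3.14, 2.38 and 1.86 with normexp background correction, and 4.50, 3.55 and 2.97 with each tissue normalized on its own. Fits were tested on simulated data. Sequences were compared at the best placement without gaps. Python 3.11.15 drew the plots.

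Described with full values were members past unadjusted TREAT for status, the 5 largest differences in each direction per tissue among members above background in a group, the 5 largest tissue differences in each direction among those called in healthy cows, and 3 genes listed by the study (KLK10, SERPINB13 and SERPINA3-1). KLK11 and KLK12 in endometrium and SPINK1 were added after their values were seen. Values of 1 member are not reported here, though counts over the 50 members include it. The members and lists were chosen with earlier results of these data known. The labels give the cow of each array, so its WBC and endometrium arrays are paired. The deviations of a cow's 2 arrays from their group means correlated at -0.22 (cow 833) to 0.10 over all genes. Alternatives were other scalings and background corrections, the authors' values, the brightest probe, a background filter, no fold threshold, another prior, the slide row or cow as a block, 1 fit of all arrays and leaving out each cow, and, chosen after seeing the data, each probe on its own.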

Additional observations from a re-analysis of the deposited data

Results flagged for a closer look

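Among 94 groups of 4 arrays of the members described with full values, 10 held an array far from the other 3 by Dixon's criterion. The criterion flags about 1 group in 20 by chance where groups are not selected. These members were selected partly by their largest differences in these data, so that rate is no yardstick for the 10. Of the 10 flagged arrays, 6 were SCE cow 833. Its endometrium stood at 10.11 for KLK11 (next 5.71), 11.81 for KLK12 (next 6.84), 8.36 for KLK8 (next 7.03) and 13.86 for SERPINA12 (next 11.99). Its WBC stood low at 7.15 for KLK8 (next 7.67) and 12.82 for SERPINA12 (next 13.81). In healthy cows, SERPINA3-1 was 7.44 in the endometrium of cow 850 (next 6.15), SERPINF2 was 5.79 in the endometrium of cow 877 (next 6.07), SERPINB8 was 5.97 in the WBC of cow 883 (next 6.28) and SERPINH1 was 9.21 in the WBC of cow 841 (next 8.25).

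The SCE effect on KLK10 differed between tissues by 1.80 and passed TREAT without adjustment (limma adjusted p = 1). All 4 SCE endometrium arrays lay above the 4 healthy ones, while KLK10 was not above background in WBC.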

How the results depend on the processing

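The counts of members called for status and for the difference of the SCE effect after adjustment were 0 under every setting that was run. KLK10 passed without adjustment in endometrium under every setting, with a difference of 1.38 (without cow 833) to 2.15 (without cow 836) when a cow was left out and 1.6 to 2.23 under the others. With the cow as a replicate block, 20 members passed between tissues in healthy and 20 in SCE cows, KLK10 kept its unadjusted call for the difference of the SCE effect (1.80), and the pairing changed no count of calls by over 1.5 times. That block added calls of KLK11 (healthy cows) and KLK12 (both cow groups) between tissues, ended those of SERPINA14 (healthy cows) and SERPINA12 (SCE cows), and changed no other call of a member.

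Counts between tissues moved with the scaling. In healthy cows 9 members were higher and 10 lower in endometrium, but 15 and 4 with normalization within each tissue, and 5 were higher with normexp background correction. Leaving out a cow gave 5 (without cow 850 or 883) to 10 higher. In SCE cows 20 passed, but 13 with slide row as a block (6 higher in WBC) and 13 (6 higher in WBC, without cow 836) to 25 (13 higher in WBC, without cow 833) when a cow was left out, and normalization within each tissue gave 14 higher and 3 lower in endometrium. The cause was not tested. In WBC, leaving out a cow gave 0 to 1 unadjusted status calls, the 1 being KLK15 without cow 833.

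Directions turned as follows. SERPINH1 was -0.68 between tissues by its brightest probe, since its probes disagree. In endometrium, SERPINA3-1 was 0.40 with 75th percentile scaling and 0.11 with normexp, and KLK8 in WBC -0.09 and -0.01; KLK12 in endometrium was 0.13 with 75th percentile scaling. When a cow was left out, the endometrial status differences ranged from -0.35 to 1.63 for SERPINA14, -1 to 0.11 for KLK4, -0.46 to 0.05 for SERPINA3-1, -0.74 to 0.77 for SERPINE2, -1.39 to 0.25 for KLK11, -1.48 to 0.54 for KLK12 and -0.17 to 1 for SPINK1 (the last 3 run after seeing the data). Those in WBC ranged from -0.03 to 0.51 for SERPINB7, -1.66 to 0.10 for KLK12, -0.45 to 0.01 for SERPINB10 and -0.07 to 0.04 for KLK10. Apart from these turns, the differences that were followed through the settings kept their direction. Other differences of the same members were not followed in this way. Without cow 833 some of those turned: KLK1 (-0.12 to 0.43) and SERPINA12 (0.26 to -0.25) for status in endometrium, and KLK9 (-0.11 to 0.21) in WBC. Signal over background limits the members near it: 5 were not above background on any array.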
